A study of Mus musculus with 4 samples.

Results

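Hepatoblast genes, which mark the parenchyma of the embryonic liver, were examined in blood progenitors sorted from that organ in the mouse. The set comprised Alb, Afp, Apoa1, Apoa2, Ttr, Fga, Fgb, Ahsg, Hnf4a and Krt18, taken as every array probe set annotated to exactly 1 of these symbols. The rule gave 23 probe sets for the 10 genes, out of 45101 probe sets on the array (10 of 18193 genes with a probe set of their own). A probe set is a group of short probes read together as 1 value, and several can report the same gene. Afp had 5, Apoa1, Ttr and Hnf4a had 4 each, and the other 6 genes had 1 each.

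The RNA came from lineage-negative, cKit-positive, Sca1-positive (LSK) cells of the liver of female E13.5 embryos, a gate that takes in blood stem cells and early progenitors. All embryos were Hes1 GFP/WT, so the labelled groups share 1 reporter allele and differ in the GFP gate. There were 3 arrays labelled HES1-GFP negative (replicates 1, 2 and 3) and 1 labelled HES1-GFP positive. Whether the negative samples are separate litters or sorts is not in the labels, so p-values measure the spread between these samples, which may be technical.

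Hepatoblasts are the embryonic precursors of hepatocytes and bile duct cells, and in the foetal liver they surround the blood-forming cells. They secrete most plasma proteins, among them the carriers albumin, alpha-fetoprotein and transthyretin, the apolipoproteins of lipid particles, and the chains of fibrinogen. HNF1 and HNF4 are transcription factors that switch many of these genes on, and keratins 8 and 18 pair to form the intermediate filaments of hepatoblasts.

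Promoter sequences are shown because the secreted members are textbook targets of HNF1 and HNF4. Several members shared an order of the arrays described further on, and a link between motifs and that order was not tested. RefSeq promoter windows (GRCm38.p6) were matched for 9 of the 10 members, all but Ttr, giving 11 windows of 250 bases before a transcription start. The half-site of HNF1, GTTAAT, was searched on both strands, where it reads ATTAAC on the other strand. It was present in 5 of the 11 windows, those of Alb, Afp, Fga, Fgb and 1 of the 2 starts of Hnf4a, and in 6.43% of all 32851 windows of that length. These 5 windows are printed 5′ to 3′ on the strand of the gene, with the half-site in capitals. They are Alb at chr5:90460620-90460869 (plus strand), Afp at chr5:90490464-90490713 (plus), Fga at chr3:83025903-83026152 (plus), Fgb at chr3:83049864-83050113 (minus) and Hnf4a at chr2:163546905-163547154 (plus).
Alb: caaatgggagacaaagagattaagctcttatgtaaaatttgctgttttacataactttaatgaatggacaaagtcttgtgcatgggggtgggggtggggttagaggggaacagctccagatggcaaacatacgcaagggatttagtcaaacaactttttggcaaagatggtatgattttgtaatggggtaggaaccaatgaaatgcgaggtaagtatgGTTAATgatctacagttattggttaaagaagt
Afp: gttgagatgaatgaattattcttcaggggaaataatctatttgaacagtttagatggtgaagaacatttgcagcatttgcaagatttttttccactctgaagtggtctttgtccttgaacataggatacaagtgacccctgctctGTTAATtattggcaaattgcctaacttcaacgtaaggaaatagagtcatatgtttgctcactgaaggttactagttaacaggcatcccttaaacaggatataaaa
Fga: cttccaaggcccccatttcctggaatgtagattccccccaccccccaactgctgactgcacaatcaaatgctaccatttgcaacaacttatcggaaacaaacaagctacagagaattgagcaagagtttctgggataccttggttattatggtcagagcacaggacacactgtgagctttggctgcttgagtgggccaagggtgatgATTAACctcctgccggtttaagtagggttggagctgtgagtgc
Fgb: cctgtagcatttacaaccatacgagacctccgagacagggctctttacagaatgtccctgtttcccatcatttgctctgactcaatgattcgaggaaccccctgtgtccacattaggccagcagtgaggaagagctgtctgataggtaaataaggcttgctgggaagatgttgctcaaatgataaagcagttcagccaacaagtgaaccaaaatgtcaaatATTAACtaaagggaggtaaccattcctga
Hnf4a: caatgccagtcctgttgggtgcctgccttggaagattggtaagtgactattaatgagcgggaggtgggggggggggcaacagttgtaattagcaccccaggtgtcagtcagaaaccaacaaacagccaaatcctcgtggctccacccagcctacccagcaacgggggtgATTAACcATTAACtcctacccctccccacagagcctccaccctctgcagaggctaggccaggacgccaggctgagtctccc
The match began 32 bases before the start in Alb, 105 in Afp, 43 in Fga and 29 in Fgb, and Hnf4a held 2 matches, at 81 and 74 bases before its start. The motifs CAAAGTCCA (a core of HNF4 sites) and TTGCGCAA (a C/EBP palindrome) were in 0 of the 11 windows, against 0.384% and 0.164% of all windows. TATAAA, the TATA box, was in 2 windows, those of Afp and Apoa2, against 12.4% of all windows. No motif of the 4 contains another, and a match describes the letters and is not a binding site. Alb and Afp are direct neighbours on chromosome 5 with 0 genes starting between them.

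The deposited arrays had near-equal median intensities, 74.8 to 76.1 on the linear scale. The processing equalized their distributions, so these medians do not show how alike the arrays were before it. Hes1, the reporter's gene, ran against its label, with log2 intensities of 8.78, 9.07 and 6.70 in negative replicates 1, 2 and 3 and 6.57 in the array labelled positive. Every direction below therefore belongs to the label, and that array is called the array labelled positive. Over all probe sets it was closest to negative replicate 3, with 8.49% of probe sets at least 1 log2 unit apart, against 11.7% to 12.8% in the other 5 pairs. Control probe sets for Gapdh gave log2 differences between the 3′ and the 5′ end of 0.65 to 0.78 in the 4 arrays, those for beta-actin -0.35 to -0.29, and those for the transferrin receptor -2.03 to -1.30, the last with the array labelled positive at the upper end. Those for pyruvate carboxylase, a dimmer control, gave -0.24, 0.08 and 0.08 in negative replicates 1, 2 and 3 and 1.10 in the array labelled positive, and the part of these values in the results was not tested.

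Hepatoblast transcripts were first set against a reference level. Probe sets of olfactory and vomeronasal receptors, genes that neither blood nor liver cells are known to express, had a 95th percentile of log2 intensity between 5.59 and 5.76 in the 4 arrays. In all 4 arrays, 19 of the 23 hepatoblast probe sets lay above that level, against 51.2% of all probe sets. Of the 10 genes, 9 had such a probe set, and Fga was above the level only in the array labelled positive. Of 23 probe sets of LSK genes (Kit, Ptprc, Cd34, Flt3 and others; Ly6a, which encodes Sca1, had no probe set of its own), 22 lay above the level. The brightness of a probe set depends on its probes as well as on its transcript, and no detection calls were at hand, so this count describes light above a dim reference and not the amount of RNA.

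Most probe sets of other liver genes lay below the same level. Among the wider lists, 147 probe sets of 91 other liver genes, 29 lay above the level in all 4 arrays and 90 in none of them, and 45 of the 91 genes had no probe set above it in any array. They include Apob, the scaffold protein of very low density lipoprotein, F2, which encodes prothrombin, Cps1, which starts the urea cycle, and Foxa1 and Foxa2, which open liver chromatin in development. By list, 9 of 53 plasma protein probe sets were above it in all arrays, as were 3 of 33 for hepatic transcription factors, 6 of 33 for hepatic enzymes and 11 of 28 for epithelial and biliary genes. The wider lists take in genes of hepatocytes as well as hepatoblasts and were not chosen for E13.5, so dim values in them need not mean absent hepatoblasts. The label hepatoblast rests on the 10 genes of the set, not on the wider lists. These 10 are described as a gene list and not as evidence of cells. In a sorted sample, fewer cells of a type and less RNA per cell cannot be told apart.

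**Figure D1:**
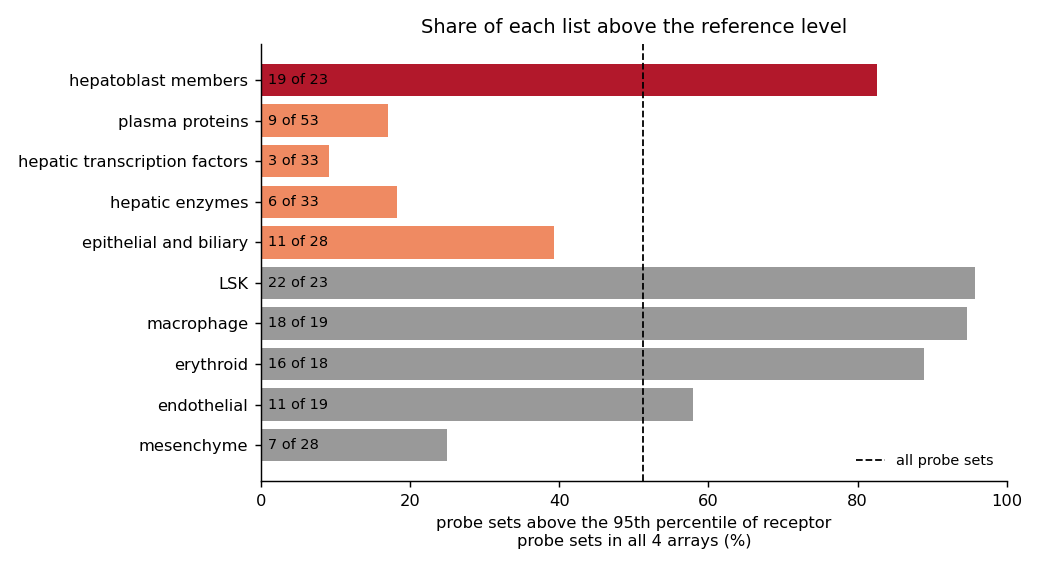
Share of the probe sets of each list (horizontal axis, percent) whose log2 intensity was above the 95th percentile of olfactory and vomeronasal receptor probe sets in all 4 arrays; numbers in the bars are counts and the dashed line is the share of all probe sets, 51.2%. The 10 hepatoblast genes stand at 19 of 23, and the 4 other liver lists lie between 3 of 33 and 11 of 28.

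The 23 probe sets varied more between arrays than most. Of them 15 spanned at least 1 log2 unit over the 4 arrays, where 29% of all probe sets did. The array of the highest value was negative replicate 1 for 7 probe sets, negative replicate 2 for 6, negative replicate 3 for 2 and the array labelled positive for 8. So the genes did not rise and fall as 1 block, and they are described by role below.

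Albumin, the main carrier protein of plasma, had 1 probe set. Its log2 intensity was 8.98, 8.29 and 7.22 in negative replicates 1, 2 and 3 and 7.62 in the array labelled positive. The array labelled positive lay inside the negative range, above replicate 3 only. The difference, positive minus the negative mean of 8.16 ± 0.89 (SD, n = 3), was -0.54 ± 0.77 (SE), smaller than the spread between the negative arrays. It was -0.13 without negative replicate 1 and -1.01 without replicate 3.

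Alpha-fetoprotein, the foetal counterpart of albumin, gave the widest values of the set. In probe set 1416645_a_at the log2 intensity was 8.95, 6.47 and 5.36 in negative replicates 1, 2 and 3 and 9.11 in the array labelled positive, a span of 3.75. In probe set 1436879_x_at the values were 7.89, 6.59, 5.83 and 8.15 in the same order. Both probe sets had the array labelled positive highest, negative replicate 1 close behind it and negative replicate 3 lowest. Their differences were 2.19 ± 1.55 (SE) and 1.39 ± 0.90 (SE), with a negative SD of 1.84 and 1.04 (n = 3).

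The other 3 Afp probe sets did not repeat that span. Probe set 1416646_at had 8.28, 7.54, 7.78 and 8.26 in negative replicates 1, 2, 3 and the array labelled positive, with the same arrays on the high side over a range of 0.74. Probe set 1436881_x_at was flat, between 6.07 and 6.26. Probe set 1436880_at was below the receptor level in every array and had its lowest value, 4.25, in the array labelled positive. Averaged over the 5, Afp stood at 7.18, 6.27, 5.98 and 7.18, a difference of 0.71 log2 units. On this array an x in the name marks probes that may bind other transcripts, an s probes shared between transcripts, and an a probes for several transcripts of 1 gene.

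Transthyretin, the carrier of thyroxine and retinol-binding protein, was highest in negative replicate 1 in all 4 of its probe sets. In 1454608_x_at the log2 intensity was 9.05, 7.34 and 6.77 in negative replicates 1, 2 and 3 and 7.74 in the array labelled positive, and in 1455913_x_at it was 8.51, 6.71, 5.88 and 7.10. In these the array labelled positive came second and replicate 3 last. Probe sets 1451580_a_at (7.41, 6.15, 6.99 and 6.30) and 1459737_s_at (7.84, 4.41, 6.03 and 4.71) instead had negative replicate 3 second and replicate 2 last. The 4 differences ran from -1.38 ± 1.45 to 0.07 ± 1.14 (SE), and their sign was not shared. The first is that of 1459737_s_at, which did not reach the receptor level in 2 arrays, the one labelled positive and negative replicate 2.

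Ahsg, which encodes fetuin-A, an inhibitor of calcium phosphate precipitation, changed little. Its log2 intensity was 6.19, 6.32 and 6.04 in negative replicates 1, 2 and 3 and 5.85 in the array labelled positive. The last value was just below the negative range, by a difference of -0.34 ± 0.22 (SE) from the negative mean.

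The apolipoproteins of high density lipoprotein parted from each other. Apoa2 had 7.29, 6.82 and 6.68 in negative replicates 1, 2 and 3 and 7.85 in the array labelled positive. That array was the highest and lay above the negative range, with a difference of 0.92 ± 0.33 (SE). The 4 probe sets of Apoa1, the main structural protein of the particle, were all highest in negative replicate 2 and spanned only 0.35 to 0.82. Averaged over its probe sets Apoa1 stood at 8.09, 8.68 and 8.40 in negative replicates 1, 2 and 3 and 8.10 in the array labelled positive. Its 4 differences were all below 0, from -0.48 to -0.12.

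Fga and Fgb, which encode the alpha and beta chains of fibrinogen, the clot protein, also differed. Fga was at 5.19, 4.74 and 3.80 in negative replicates 1, 2 and 3 and at 6.12 in the array labelled positive. This array alone exceeded the receptor level, and the difference was 1.55 ± 0.62 (SE). Fgb was at 5.64, 7.13 and 5.96 in the negative arrays and at 6.57 in the array labelled positive. Here negative replicate 2 was highest and the difference of 0.33 ± 0.69 (SE) was inside the spread, and it was 0.02 without negative replicate 1, 0.77 without replicate 2 and 0.18 without replicate 3. Fgg, the gamma chain, named here after its values were seen, had 4.56, 5.37, 5.43 and 5.91, again with the array labelled positive highest but with negative replicate 1 lowest.

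**Figure D2:**
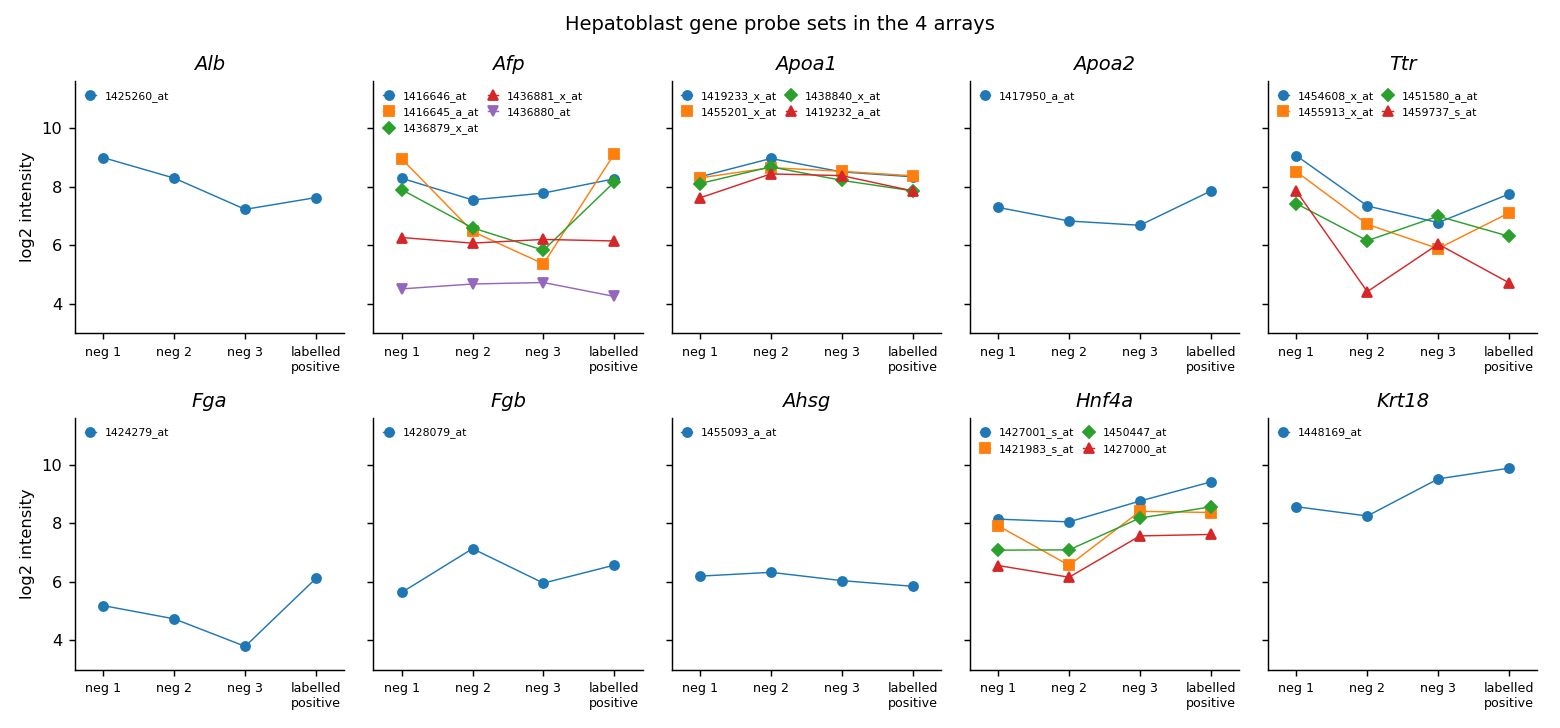
Log2 intensity (vertical axis) of each of the 23 probe sets in negative replicates 1 to 3 (neg 1 to neg 3) and the array labelled positive, 1 panel per gene and 1 line per probe set; lines join the values of 1 probe set and stand for no order in time. The 2 wide Afp probe sets are at 5.36 and 5.83 in negative replicate 3 and stand highest in the array labelled positive, while Apoa1 and Ahsg are nearly level.

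Several secreted members shared an order of the arrays. Both wide Afp probe sets, Apoa2 and Fga ran from the array labelled positive through negative replicates 1 and 2 down to replicate 3. This order, like the looser patterns below, was picked out after the values were seen. It was held by 4 of the 23 hepatoblast probe sets and by 2.75% of all probe sets. Other orders held 3 hepatoblast probe sets each, 1 of them with Apoa1 only (5.7% of all probe sets) and 1 with Hnf4a and Krt18 (5.15%). The shares are therefore a description and no test of a common order. More loosely, negative replicate 1 and the array labelled positive were both above the other arrays in 7 hepatoblast probe sets (of Afp, Apoa2, Ttr and Fga), against 13.2% of all probe sets. Negative replicate 3 was lowest in 7 probe sets, all of secreted members (Alb, Afp, Apoa2, Ttr and Fga), against 20.7% of all. Summed over the 18 probe sets of the 8 secreted genes, linear intensity was 4363, 3144 and 2527 in negative replicates 1, 2 and 3 and 3455 in the array labelled positive. Probe sets of 1 gene share a transcript, so these counts rest on fewer genes than probe sets.

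Hnf4a, the nuclear receptor that directs hepatocyte genes, followed another order. In probe set 1427001_s_at its log2 intensity was 8.14, 8.05 and 8.76 in negative replicates 1, 2 and 3 and 9.41 in the array labelled positive. In 1450447_at it was 7.08, 7.09, 8.18 and 8.56, in 1427000_at 6.56, 6.16, 7.57 and 7.62, and in 1421983_s_at 7.91, 6.56, 8.41 and 8.37. All 4 probe sets had negative replicate 3 and the array labelled positive above replicates 1 and 2, and in 3 of them the array labelled positive was highest. The differences were 1.10, 1.11, 0.86 and 0.74 in that order, and the first had the lowest unadjusted limma p of the set, 0.0460, with an adjusted p of 1.00.

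Krt18, which encodes keratin 18, had the same order as 2 of the Hnf4a probe sets. Its log2 intensity was 8.56, 8.25 and 9.51 in negative replicates 1, 2 and 3 and 9.88 in the array labelled positive, a difference of 1.10 ± 0.58 (SE). The array labelled positive lay above the negative range, and replicate 3 was much closer to it than replicates 1 and 2. Krt8, the gene of its filament partner, named here after its values were seen, did not share this order. Its 3 probe sets were each highest in negative replicate 2 and lowest in replicate 1, with differences of -0.33 to -0.29, and the brightest had 5.33, 6.19, 5.58 and 5.37.

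Hnf4a and Krt18 therefore made up all 5 hepatoblast probe sets in which negative replicate 3 and the array labelled positive were both above replicates 1 and 2, a pattern of 21.5% of all probe sets. The secreted members were mixed in this respect: negative replicate 3 was lowest in 7 of their 18 probe sets, second highest in the 4 of Apoa1, 2 of Ttr and 1 of Afp, and highest in the dim Afp probe set 1436880_at. Between negative replicates 1 and 3, the 4 Hnf4a probe sets were higher in replicate 3 by 0.49 to 1.10 log2 units and Krt18 by 0.95. The secreted members ran from -3.59 in Afp probe set 1416645_a_at, with -1.76 in Alb and -0.15 in Ahsg, to 0.32 in Fgb and 0.11 to 0.76 in the 4 Apoa1 probe sets.

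**Figure D3:**
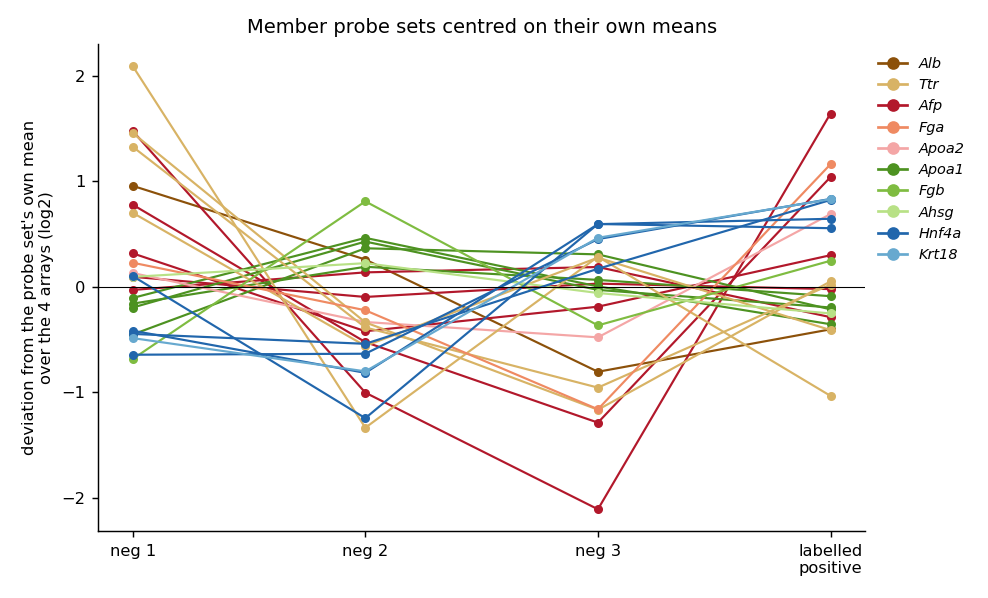
Deviation of each hepatoblast probe set from its own mean over the 4 arrays (vertical axis, log2 units), 1 line per probe set and 1 colour per gene, lines joining the values of 1 probe set. Hnf4a and Krt18 (blue) are above 0 in that positive array and in negative replicate 3, while the wide Afp probe sets and Fga (red and orange) are lowest in negative replicate 3.

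The comparison set up by the labels was GFP positive against GFP negative. With limma over 45037 probe sets, 0 of the 23 hepatoblast probe sets passed an adjusted p under 0.05, where 0% of all probe sets did, and all 23 had an adjusted p of 1.00. At an unadjusted p under 0.05 limma gave 1 hepatoblast probe set, the Hnf4a probe set named above, where 4.51% of all probe sets passed. Only the 3 negative arrays give the spread, and the lone array labelled positive is assumed to vary like them.

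Without a variance model, the array labelled positive lay above the negative range in 8 of the 23 probe sets (2 of Afp, 3 of Hnf4a, and Apoa2, Fga and Krt18) and below it in 3 (1 each of Afp, Apoa1 and Ahsg). Over all probe sets, 23.2% were above and 23.6% below, 46.9% together. The total of 11 of 23 is thus near the background, and the balance between the sides is a description of 5 and 3 genes. The median difference was 0.07 log2 units over the 23 probe sets and -0.01 over all probe sets. It was 0.60 without negative replicate 1, with 17 probe sets outside the range where 64.5% of all probe sets then were, and -0.04 and -0.02 without replicates 2 and 3. Averaged per gene, the median of the 10 genes was 0.52.

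**Figure D4:**
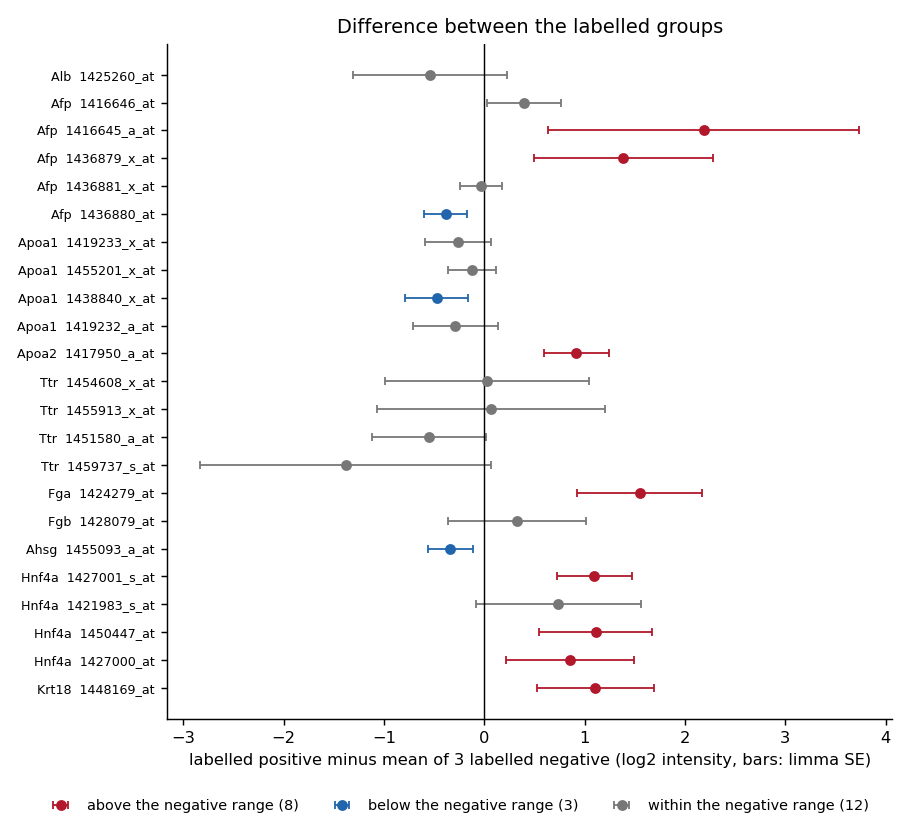
Difference between the array labelled positive and the mean of the 3 negative arrays for each of the 23 probe sets (horizontal axis, log2 units), with limma standard errors as bars; colour shows whether the array labelled positive lay above, below or within the range of the negative arrays. The 8 probe sets above belong to Afp, Apoa2, Fga, Hnf4a and Krt18, and their differences run from 0.86 to 2.19.

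The other liver genes gave no call either. As given before, 23.2% of all probe sets were above the negative range, 23.6% below it and 4.51% at an unadjusted limma p under 0.05. In the 4 wider lists, 0 of 147 probe sets passed limma's adjusted p, with 2 at an unadjusted p under 0.05, and the array labelled positive exceeded all negative arrays in 28 and was under all of them in 37, at a median difference of -0.05. The 2 were of Kng1, the kininogen precursor of bradykinin, and of Hpx, the haem carrier haemopexin. Kng1 was at 5.80, 5.84 and 5.87 in the negative arrays, just above the receptor level, and 6.94 in the array labelled positive (limma adjusted p = 0.846). Its other probe set was level at 2.85 to 3.04, below the receptor level in every array. Hpx, at 3.90 to 4.77, was also below that level in every array.

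Among plasma proteins the brightest probe sets were those of Hp, haptoglobin, and Apoc1, a small apolipoprotein. Hp was at 8.61, 9.63 and 10.72 in negative replicates 1, 2 and 3 and 10.90 in the array labelled positive, while Apoc1 ran the other way, at 10.64, 10.54, 8.92 and 8.49. F10, coagulation factor X, spanned the widest range of the list, at 5.33, 6.06, 7.78 and 7.76. In all 3 genes negative replicate 3 was nearer to the array labelled positive than replicates 1 and 2 were, as for Hnf4a and Krt18.

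Of the hepatic transcription factors, Hhex was level at 11.07 to 11.38 and Cebpa was at 8.55, 8.48, 9.85 and 9.55, and both are also used by blood progenitors. In their widest probe sets, Gata6 (4.36, 6.99, 4.68 and 4.59) was above the receptor level in negative replicate 2 alone, and Prox1 (3.25, 5.11, 3.58 and 3.15) was below it in every array. Among the enzymes Ttpa, the tocopherol transfer protein, was at 6.41, 8.65, 7.69 and 8.06, and Adh1, an alcohol dehydrogenase, at 5.19, 7.81, 6.13 and 6.88, both with replicate 2 highest, as for Fgb. Arg1, the arginase of the urea cycle, was at 7.35, 8.04, 5.57 and 4.89, and Aldh1l1, a folate enzyme, at 6.99, 6.99, 7.62 and 6.24 in its brighter probe set. In the epithelial list Spint2, a protease inhibitor, had 10.16, 9.77, 9.58 and 10.32 in its brighter probe set, the array order of the wide Afp probe sets. Lgr5 reached 7.50 in negative replicate 2 and was at 3.53 to 3.84 elsewhere in its widest probe set. Its other probe set was level at 3.95 to 4.33. Dsp, desmoplakin, was at 7.87, 3.99, 7.32 and 4.20 in its widest probe set, while its others stayed between 2.88 and 3.19, below the receptor level. The named genes of a list thus held no common order of arrays. The following surface proteins of hepatoblasts were named after their values were seen. Dlk1 was at 7.76, 6.78, 10.13 and 9.23 in its brighter probe set. Met, the receptor of hepatocyte growth factor, was at 5.71, 6.19, 9.09 and 9.52 in its brighter probe set, and both genes ran in the direction of Hnf4a. The dimmer Met probe set, at 5.25, 4.59, 7.90 and 6.31, had negative replicate 3 highest and a difference of 0.40, against 2.53 in the brighter. Epcam, an epithelial adhesion molecule, was level in its brighter probe set, at 6.93, 6.35, 6.66 and 6.76. Cdh1, of the same list, was at 3.80 to 4.50, below the receptor level in every array.

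Markers of macrophages and endothelium differed more between the arrays than the liver lists did, while those of mesenchyme did not: 19 of 19 macrophage, 14 of 19 endothelial, 8 of 18 erythroid and 3 of 28 mesenchyme probe sets spanned at least 1 log2 unit, against 15 of 23 for the hepatoblast genes and 37 of 147 for the wider liver lists. The counts of each list outside the negative range stand beside 23.2% above and 23.6% below over all probe sets. Of 19 macrophage probe sets (C1qa, Cd68, Vcam1 and others), 0 were above and 11 below the negative range. Their summed intensity was 46607, 45062 and 11592 in negative replicates 1, 2 and 3 and 10518 in the array labelled positive. In the endothelial list 2 of 19 were above and 9 below, with sums of 9707, 10494, 5474 and 5103. Of 18 erythroid probe sets 8 were above and 1 below, with sums of 34875, 33699, 42071 and 43680. These lists divide the arrays as Hnf4a and Krt18 do, in the same or the opposite direction, and their part in those values was not tested. The mesenchyme list, with 3 of 28 above and 9 below, had sums of 2264, 2772, 2471 and 2133, and all probe sets of its genes Col3a1, Dcn, Lum, Pdgfra and Wt1 lay below the receptor level in every array. The LSK list, with 8 of 23 above and 4 below, had sums of 30610 to 36103.

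**Figure D5:**
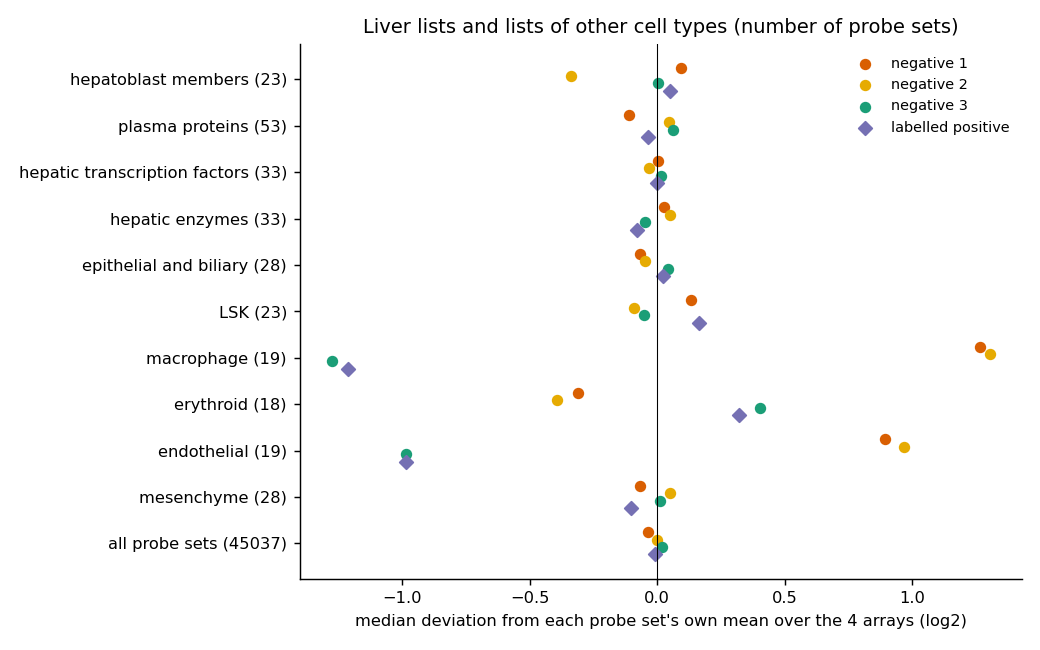
Median deviation of the probe sets of each list from their own means over the 4 arrays (horizontal axis, log2 units), 1 symbol per array, with the number of probe sets in brackets. The macrophage and endothelial lists separate negative replicates 1 and 2 from replicate 3 and the array labelled positive, while the medians of the hepatoblast genes lie between -0.34 and 0.09 and those of the 4 other liver lists between -0.11 and 0.06.

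The genes most like albumin across the arrays were sought among 9608 named probe sets that spanned at least 1 log2 unit, by the root mean square distance between centred log2 profiles over the 4 arrays. They were Spock2, a proteoglycan of the extracellular matrix (distance 0.03), Btg1, an antiproliferative factor (0.06), Myo19, a mitochondrial myosin (0.06), Bzw2 (0.06) and Mmrn2, an endothelial matrix protein (0.06). Spock2 was at 6.72, 6.05, 4.97 and 5.44 in negative replicates 1, 2, 3 and the array labelled positive. The last 2 of these values were below the receptor level, as was Myo19 in negative replicate 3, at 5.49. Mmrn2, at 3.32 to 5.01, was below that level in every array. Among the other hepatoblast probe sets the closest was 1454608_x_at of Ttr, at a distance of 0.43, and 1161 of the candidates were nearer to Alb than that. With 4 arrays a small distance is easily met, and these distances are a description.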

How the data were processed

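Values were deposited by the authors as intensities on a linear scale, made with RMA per the submitters' processing notes (background correction, equalized distributions, 1 value per probe set); its version is not given in the sources used here. Per the labels' protocols, RNA was amplified before labelling. Equalized arrays hide differences in total RNA per cell. Log2 was taken with no pseudocount, 64 control probe sets were set aside and 45037 were fitted. Symbols came from the platform annotation, updated by gene ID (34741 of 34945 single-symbol probe sets matched).

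The groups were compared in limma 3.58.1 (R 4.3.3; lmFit, eBayes, two-sided, Benjamini-Hochberg, threshold 0.05), tested on simulated data. The spread had 2 residual and 1.8 prior degrees of freedom, and 4 arrays limit the precision. Members and lists were chosen with earlier results of these data known. Other liver genes were named by brightness and range, 2 each per list. Kng1, Hpx, Krt8, Fgg, Dlk1, Met, Epcam and Cdh1 were added after their values were seen. Alternatives were cyclic loess, a level filter, a pseudocount of 16, 1 or averaged probe sets per gene, trend and robust settings, and leaving out each negative array. Figures used matplotlib 3.10.9.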

Additional observations from a re-analysis of the deposited data

How the results depend on the processing

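limma called 0 hepatoblast and 0 wider liver probe sets under every alternative run. The count over all probe sets was 0 in each run too, so these counts say nothing particular to the liver genes. The median hepatoblast difference of 0.07 was 0.36 with probe sets above the median level (18 left), 0.36 with the brightest probe set per gene, 0.52 with averaged probe sets, and between -0.042 and 0.604 when 1 negative replicate was left out. The count outside the negative range, 11 of 23, was 5 of 10 with the brightest probe set and 6 of 10 with averaged probe sets, where fewer features enter. Over all genes, 46.6% and 47.1% lay outside in these 2 settings. The count was 13 to 17 when 1 negative replicate was left out, where the range is narrower and 62.3% to 66.9% of all probe sets lie outside it. Of 78 recomputed differences of single member genes 4 changed sign, all of Ttr, whose 0.03 became -0.0089 with cyclic loess, -0.46 with averaged probe sets, and, when 1 negative replicate was left out, lay between -0.45 and 0.69 (-0.17 and -0.45 without replicates 2 and 3); the cause was not tested. No paired analysis was possible because the labelled groups share 1 replicate number only. Without 1 negative replicate the difference also moved by over 1.5 times in the brightest probe set of Afp (0.24 to 0.60) and of Apoa1 (-0.40 to -0.083), besides Alb and Fgb as given above. Signal over background limits Fga, Ahsg, the dim Afp probe sets and 1459737_s_at of Ttr, which lie near or below the receptor level. The same limit holds for Krt8 and Fgg, and for Afp probe set 1416645_a_at in negative replicate 3.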
